A study of Homo sapiens with 6 samples.

Results

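MOLM-14 and NOMO-1 are human acute myeloid leukaemia cell lines that both carry the MLL-AF9 fusion, and their transcriptomes were set against each other gene by gene. The comparison took 4 of the 6 libraries of a series on NCAM1 (CD56): for each line, 1 library of cells given a scrambled short hairpin RNA (shRNA) and 1 of cells given an shRNA against NCAM1, all sampled at 72 h. Every group therefore consisted of cells that had been through a transfection, and none was untreated. Each line and condition was 1 library, nothing in the labels names separate cultures, and each line stands for the leukaemia of a single patient. Genes were kept where the mean normalized read count over these 4 libraries was 10 or more, which left 19263 of 34114 genes. A gene silent in one line was thus kept only through its level in the other, which fixed the direction of its difference. The remaining line, SKM-1, was used only where a level outside the pair is of help.

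MLL-AF9 joins the start of the histone methyltransferase KMT2A (MLL) to the end of MLLT3 (AF9), a subunit of complexes that promote transcription elongation. The fusion recruits the elongation machinery and the methyltransferase DOT1L to KMT2A's own target genes, the HOXA cluster and MEIS1 foremost, and keeps them active. Leukaemias with this fusion are mostly monocytic or myelomonocytic. As further background, MOLM-14 carries an internal tandem duplication in the receptor kinase gene FLT3. The deposited gene counts do not hold the fusion transcript or this duplication, and neither was looked for.

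Throughout, pairs of values are normalized read counts of the scrambled library and then the NCAM1 shRNA library of a line. Differences are log2 of the normalized count plus 1, MOLM-14 minus NOMO-1, with the standard error (SE) of the limma fit, in which the shRNA was a term. A gene was called where the Benjamini-Hochberg adjusted p was under 0.05 and the difference at least 2-fold. The 4 libraries held 41916991 to 45542099 reads assigned to genes, and 5.40% to 7.86% of them came from mitochondrial genes. The targeted gene, NCAM1, had 6004 and 1896 in MOLM-14 and 1163 and 312 in NOMO-1, lower with its shRNA in both lines and higher in MOLM-14 within either condition (log2 difference 2.48 ± 0.17, adjusted p = 1.89e-04). The call of NCAM1 (without any 1 of the 4, adjusted p up to 0.323) ended when single libraries were left out. The call of NCAM1 (in the fit of all 6 libraries and with no shRNA term, adjusted p up to 0.288) ended under other settings. The pan-leukocyte gene PTPRC (CD45), the myeloid antigen CD33 and the myeloid regulator SPI1 (PU.1) were present in all 4 libraries and were not called, CD33 at 2819 and 2229.8 in MOLM-14 and 3837 and 3199 in NOMO-1. CD14, the classical monocyte marker, lay at 5.58 and 3.13 in MOLM-14 and 8.50 and 27.4 in NOMO-1, near the filter, so it marked neither line. Values are per culture, so fewer cells of a kind and less RNA per cell cannot be told apart. No p-value or SE measures a spread between replicate cultures. Each rests on how far the line difference varied between the 2 shRNA conditions, moderated across genes.

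Of the 19263 genes, 2249 (11.7%) were called higher in MOLM-14 and 3203 (16.6%) lower, 28.3% in all, around a median difference of -0.0091. The counts of called list members given below are to be read beside these shares. The excess of genes lower in MOLM-14 came with more genes at exactly 0 reads there: 6651 and 6583 of the 34114 genes had no read in the MOLM-14 libraries against 4465 and 4416 in NOMO-1. At a difference of 32-fold or more, 273 genes were higher and 646 lower. No called gene changed sign between the scrambled pair and the NCAM1 shRNA pair, and 4702 of the 5452 (86.2%) were at least 2-fold apart the same way in both. The fit averages these pair differences and takes their disagreement as error, so calling itself selects genes on which the pairs agree. That the lines do not overlap in a called gene is therefore a description and no separate support. Leaving out 1 library and the shRNA term with it reduced the calls to 2146 to 3381, fitting all 6 libraries together to 2786. With 1 library left out, the error became the difference between the conditions in the line that kept 2. A call that ended there need not rest on the library removed. SKM-1 lay nearer MOLM-14 for 43.0% of the genes called higher and for 51.4% of those called lower.

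**Figure D1:**
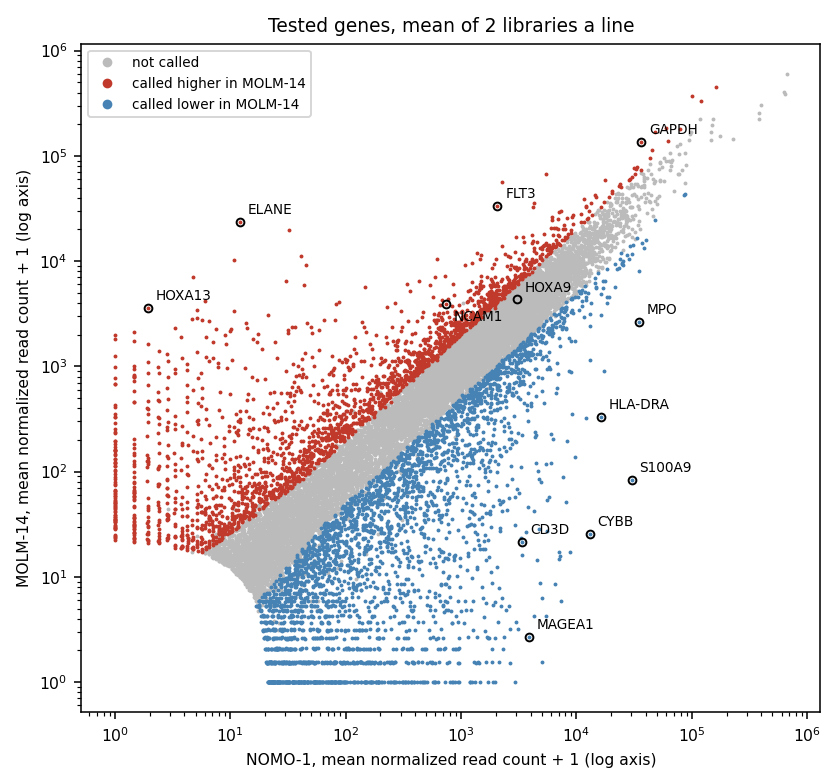
Each point is 1 of the tested genes, placed by its mean normalized read count plus 1 over the 2 NOMO-1 libraries (horizontal, log axis) and the 2 MOLM-14 libraries (vertical, log axis). Red genes were called higher in MOLM-14 and blue genes lower (Y-linked genes and XIST are left out). ELANE and HOXA13 lie at the upper left and MAGEA1, CYBB and S100A9 at the lower right, while HOXA9 lies among the uncalled genes.

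The largest differences were genes present in one line and all but absent in the other. Among the 15 highest in MOLM-14 with a mean of 100 or more, ELANE (neutrophil elastase) had 18712 and 28666 in MOLM-14 and 11.3 and 10.9 in NOMO-1, and HOXA13, the most posterior HOXA gene, 3294 and 3928 in MOLM-14 and 0.945 and 0.912 in NOMO-1. NR2F1, an orphan nuclear receptor of development, had 1125 and 2512 in MOLM-14 and 0 and 0 in NOMO-1, which put it at least 653-fold higher when its absence in NOMO-1 was set at 3 reads a library. HMX3, a homeobox gene, was likewise at least 355-fold higher. LAMP5, a lysosomal membrane protein, had 3794 and 4636 in MOLM-14 and 2.83 and 7.30 in NOMO-1, and NRN1 (neuritin) 2463 and 2184 in MOLM-14 and 2.83 and 1.82 in NOMO-1. In each of these genes both MOLM-14 libraries exceeded both NOMO-1 libraries by more than 2 orders of magnitude. The heparan sulfate sulfotransferase HS6ST2 (9.47) and the mitochondrial folate enzyme ALDH1L2 (9.87) were of the same kind. PWAR6 and SNHG14, noncoding RNAs of the imprinted Prader-Willi region, and 5 genes of a single run on chromosome 9 (FOCAD, PTPLAD2, KLHL9, CAAP1 and C9orf72) made up the rest.

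In the other direction, MAGED1, a melanoma antigen family member, had 3168 and 2655 in NOMO-1 and 0 and 0 in MOLM-14 and was at least 899-fold lower in MOLM-14. MAGEA1, a cancer testis antigen, had 4030.4 and 3673 in NOMO-1 and 3.35 and 0 in MOLM-14. The neutrophil surface proteins CEACAM6 and CD177 had 7926 and 2178 in NOMO-1 and 1.12 and 0 in MOLM-14, and 3147 and 825 in NOMO-1 and 0 and 0 in MOLM-14, respectively. RETN, which encodes the myeloid secretory protein resistin, had 1535 and 929.6 in NOMO-1 and 0 and 0 in MOLM-14. All of these were high in both NOMO-1 libraries, CEACAM6 and CD177 more so in the scrambled one. WASF3, a regulator of actin, was at least 579.7-fold lower in MOLM-14, and GALNT14, a glycosyltransferase, at least 447-fold. HOXD13 had 1269 and 1139 in NOMO-1 and 0 and 0 in MOLM-14, the mirror of HOXA13. The remaining members of the 15 were RAB3C (-10.73), CSMD3 (-10.63), ENPP4 (-10.37), the nuclear receptor RORB (-10.33), guanine deaminase GDA (-10.31), IGSF10 (-10.27) and the homeodomain protein HOPX (-10.23).

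**Figure D2:**
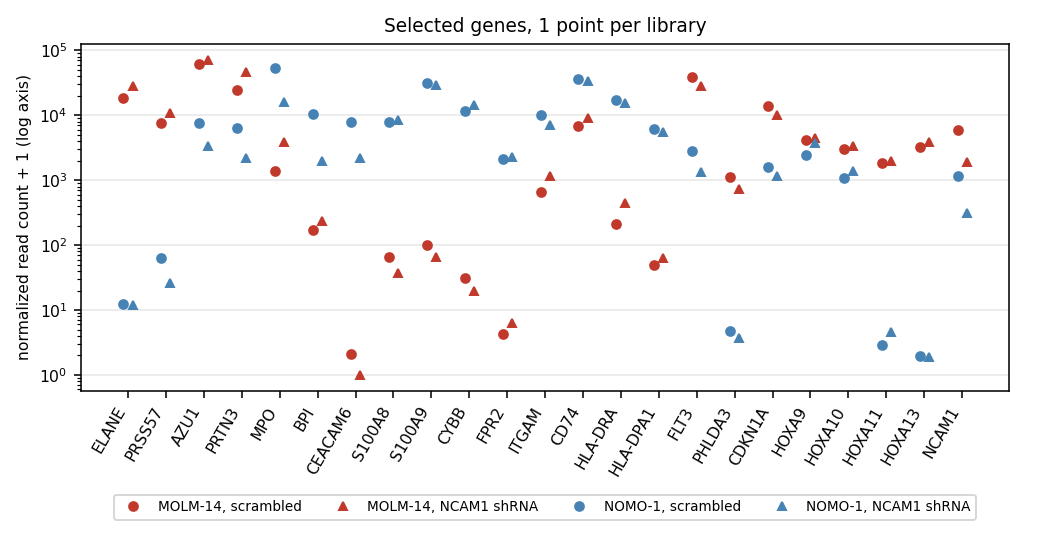
Normalized read count plus 1 (vertical, log axis) of 23 genes named in the text, with 1 point per library: red for MOLM-14, blue for NOMO-1, circles for the scrambled and triangles for the NCAM1 shRNA library. ELANE, PRSS57, AZU1 and PRTN3 are higher in MOLM-14 whereas MPO and BPI are higher in NOMO-1, and for HOXA9 the 2 lines lie within 2-fold of each other.

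The genes that make up the fusion lay near or under a 2-fold difference. KMT2A had 5623 and 5342 in MOLM-14 and 4328 and 3316 in NOMO-1 (log2 difference 0.53 ± 0.16, adjusted p = 0.038) and stayed under 2-fold. MLLT3 had 881 and 919.7 in MOLM-14 and 474 and 381 in NOMO-1, just past 2-fold (log2 difference 1.08 ± 0.20, adjusted p = 0.00773). With single libraries left out, the call of MLLT3 (without either MOLM-14 library or the NOMO-1 NCAM1 shRNA library, adjusted p up to 0.147, log2 difference from 0.92) ended. Under other settings the call of MLLT3 (in the fit of all 6 libraries, under total-count scaling and on the authors' transformed values, adjusted p up to 0.321, log2 difference from 0.90) ended. Of the fusion partners and cofactors, 3 of 15 tested members were called higher and the others were not called (1 to 2 higher with 1 library left out), at a median log2 difference of 0.58. AFF1 (AF4), a scaffold of the super elongation complex, had 26049 and 24688 in MOLM-14 and 8002 and 5955 in NOMO-1 (log2 difference 1.88 ± 0.15, adjusted p = 3.48e-04). DOT1L, the H3K79 methyltransferase, had 11365 and 8300.2 in MOLM-14 and 4782 and 3862 in NOMO-1. The call of DOT1L ended without any 1 of the 4 libraries, in fits that also lacked the shRNA term. PSIP1 (LEDGF), which tethers KMT2A to chromatin (0.76), was not called.

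Among the fusion's targets, the posterior end of the HOXA cluster was higher in MOLM-14, while HOXA9 and MEIS1 were not called. HOXA9, a transcription factor that MLL leukaemias depend on, had 4193 and 4449 in MOLM-14 and 2425 and 3712 in NOMO-1 (log2 difference 0.53 ± 0.18, adjusted p = 0.0613), so the NOMO-1 NCAM1 shRNA library came close to both MOLM-14 libraries. MEIS1, its cofactor, had 3047 and 3218 in MOLM-14 and 2176 and 1715 in NOMO-1. Also not called were HOXA5 (0.63), the transcription factor MYB (0.57) and the kinase CDK6 (0.15). HOXA10 had 3009 and 3356 in MOLM-14 and 1097 and 1366 in NOMO-1 (log2 difference 1.38 ± 0.16, adjusted p = 0.00129), a moderate difference. HOXA11 had 1849 and 1989 in MOLM-14 and 1.89 and 3.65 in NOMO-1 (log2 difference 9.03 ± 0.32, adjusted p = 2.88e-05), and HOXA13 was more extreme still, both with no overlap and next to nothing in NOMO-1. MEF2C, a transcription factor and known fusion target, had 13765 and 14560.5 in MOLM-14 and 4625 and 6059.6 in NOMO-1 (log2 difference 1.42 ± 0.15, adjusted p = 9.49e-04). EYA1, a transcriptional coactivator, was the only gene of this list called lower, at 16.7 and 98.1 in MOLM-14 and 219 and 194 in NOMO-1 (log2 difference -2.31 ± 0.61, adjusted p = 0.0257). Across the list 7 of 25 tested members were called higher and 1 lower (4 to 8 higher and 0 to 1 lower with 1 library left out), at a median log2 difference of 0.53. Leaving out single libraries ended the calls of HOXA10 (without either MOLM-14 library, adjusted p up to 0.0778), MEF2C (without either MOLM-14 library, adjusted p up to 0.0722) and EYA1 (without the MOLM-14 scrambled library or either NOMO-1 library, adjusted p up to 0.316). In the fit of all 6 libraries the call of MEF2C (adjusted p = 0.302) ended. Other settings ended the call of EYA1 (in the fit of all 6 libraries, with no shRNA term, in limma without a trend, with the robust option and with no filter, adjusted p up to 0.316).

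The other HOX clusters also set the lines apart, in both directions. HOXB3, an anterior HOXB gene, had 625 and 449 in NOMO-1 and 5.58 and 2.09 in MOLM-14. HOXB4, long known as a gene that expands blood stem cells, had 417 and 373 in NOMO-1 and 1.12 and 3.13 in MOLM-14. HOXB13 followed at lower counts (-3.76), and HOXB9 went the other way, with 27.9 and 29.2 in MOLM-14 and 0 and 0 in NOMO-1. Of HOXC genes, which were looked at after the values had been seen, HOXC10 had 255 and 206 in MOLM-14 and 0 and 2.74 in NOMO-1. HOXC9 had 70.3 and 34.4 in MOLM-14 and 0 and 0 in NOMO-1. HOXC4 (3.55) and HOXC6 (1.33) were higher in MOLM-14 as well. Counting all HOX genes, 8 of 20 tested were called higher and 4 lower. So the far 5′ HOXA genes, HOXB9 and the tested HOXC genes were higher in MOLM-14. HOXB3, HOXB4, HOXB13 and HOXD13 were higher in NOMO-1. For HOXC6 the difference was one of degree. The call of HOXC6 (without any 1 of the 4, adjusted p up to 0.193) ended when single libraries were left out. The call of HOXC6 (in the fit of all 6 libraries, on the authors' transformed values and in DESeq2, adjusted p up to 0.112, log2 difference from 0.93) ended under other settings.

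FLT3 and several genes induced through STAT5 were higher in MOLM-14. FLT3, a class III receptor tyrosine kinase, had 39095 and 28123 in MOLM-14 and 2787 and 1348 in NOMO-1 (log2 difference 4.10 ± 0.18, adjusted p = 4.63e-05). Of the genes that cytokine receptors induce through STAT5, 9 of 18 tested members were called higher and 1 lower (1 to 7 higher and 0 to 1 lower with 1 library left out), at a median log2 difference of 1.16. CCND2 (cyclin D2) stood out with 5778 and 6106 in MOLM-14 and 51.01 and 33.8 in NOMO-1 (log2 difference 7.13 ± 0.24, adjusted p = 2.60e-05), 2 orders of magnitude apart. CISH, a STAT5-induced inhibitor of cytokine signalling, had 3292 and 2166 in MOLM-14 and 749 and 456 in NOMO-1. Its relative SOCS2 had 13694 and 15969.8 in MOLM-14 and 4503 and 6321 in NOMO-1. In both genes the lines did not overlap. The transcription factor MYC had 30769 and 25149 in MOLM-14 and 12127 and 9599 in NOMO-1. ID1, an inhibitor of differentiation factors, was also higher (3.57). STAT5A was called higher (1.42) and STAT5B was not called (-0.53). PIM1, a kinase and textbook STAT5 target, had 4554 and 2016 in MOLM-14 and 1146 and 2127 in NOMO-1 and overlapped. LTB (lymphotoxin beta) was the only gene of the list called lower (-2.26). With single libraries left out, the calls of CISH (without the MOLM-14 scrambled library or the NOMO-1 NCAM1 shRNA library, adjusted p up to 0.0817), SOCS2 (without either MOLM-14 library, adjusted p up to 0.088), MYC (without either MOLM-14 library or the NOMO-1 NCAM1 shRNA library, adjusted p up to 0.0883), ID1 (without either MOLM-14 library, adjusted p up to 0.0563), STAT5A (without either MOLM-14 library or the NOMO-1 NCAM1 shRNA library, adjusted p up to 0.221) and LTB (without the MOLM-14 NCAM1 shRNA library or either NOMO-1 library, adjusted p up to 0.145) ended. Fitting all 6 libraries together ended the calls of SOCS2 (adjusted p = 0.117) and MYC (adjusted p = 0.0567). Under other settings the calls of STAT5A (in the fit of all 6 libraries, in limma without a trend and with no filter, adjusted p up to 0.0786) and LTB (in the fit of all 6 libraries and in limma without a trend, adjusted p up to 0.143) ended.

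Genes of RAS and MAP kinase signalling were called in both directions. CBL, a ubiquitin ligase that turns receptors over, had 8081 and 6619 in MOLM-14 and 11480.2 and 8982 in NOMO-1 (-0.47), and the phosphatase PTPN11 had 15162 and 15322 in MOLM-14 and 9564 and 11045 in NOMO-1 (0.57). Neither was called. Of the pathway's components, 2 of 20 tested members were called higher and 4 lower (0 to 2 higher and 1 to 4 lower with 1 library left out), at a median log2 difference of 0.16. These shares were near those of all genes, 11.7% higher and 16.6% lower. RASGRP1, a RAS exchange factor, had 551 and 485 in NOMO-1 and 53.5 and 39.7 in MOLM-14 (log2 difference -3.46 ± 0.26, adjusted p = 2.49e-04). MAPK3 (ERK1) was called lower in MOLM-14 too (-1.33). For the genes that ERK signalling induces, 5 of 18 tested members were called higher and 5 lower (0 to 1 higher and 1 to 2 lower with 1 library left out), at a median log2 difference of -0.29. SPRY2, a feedback inhibitor, had 2847 and 1814 in MOLM-14 and 723 and 548 in NOMO-1. The immediate early gene EGR1 had 2892 and 1264 in MOLM-14 and 644 and 158 in NOMO-1. Both were higher in MOLM-14 within each condition. Higher in NOMO-1 were the ERK phosphatase DUSP4 (-1.52), the sprouty relative SPRED3 (-4.12) and the cytokine LIF (-2.40), while DUSP6, a common readout of ERK activity, had 4249.9 and 2904 in MOLM-14 and 4966 and 3588 in NOMO-1 and was not called. In fits that lacked 1 library and the shRNA term, the calls of MAPK3 (without either MOLM-14 library), SPRY2 (without the MOLM-14 scrambled library or either NOMO-1 library), EGR1 (without any 1 of the 4), DUSP4 (without the MOLM-14 NCAM1 shRNA library or either NOMO-1 library), SPRED3 (without either NOMO-1 library) and LIF (without either MOLM-14 library or the NOMO-1 scrambled library) ended. When all 6 libraries were fitted, the calls of DUSP4 (adjusted p = 0.0546) and LIF (adjusted p = 0.0626) ended. Changed settings ended the call of EGR1 (in the fit of all 6 libraries and with no shRNA term, adjusted p up to 0.0931).

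Among cell cycle genes, most calls fell on those of the G1 step. Of G1 cyclins and inhibitors, 5 of 18 tested members were called higher and 1 lower (0 lower with 1 library left out), at a median log2 difference of 0.48. CDKN1B (p27) had 4238 and 4534 in MOLM-14 and 751 and 791 in NOMO-1 (log2 difference 2.51 ± 0.16, adjusted p = 1.41e-04) and was higher alongside CCND2. CDKN1A (p21), another inhibitor of cyclin-dependent kinases, had 13672 and 10113 in MOLM-14 and 1606 and 1158 in NOMO-1 (log2 difference 3.11 ± 0.15, adjusted p = 5.54e-05). PHLDA3, a repressor of AKT that is no member of that list, had 1127 and 723 in MOLM-14 and 3.78 and 2.74 in NOMO-1 (log2 difference 7.74 ± 0.32, adjusted p = 3.95e-05). In all of these both MOLM-14 libraries were above both NOMO-1 libraries. CCND3 (0.53) and RB1 (0.67) were not called. Of 20 replication genes limma called 1, RFC4, a clamp loader subunit (-1.20), against 28.3% of all genes. Of 21 mitosis genes only UBE2C was called: this ubiquitin-conjugating enzyme of the anaphase-promoting complex had 2278 and 2123 in MOLM-14 and 44.4 and 70.2 in NOMO-1 (log2 difference 5.27 ± 0.26, adjusted p = 6.23e-05), while MKI67 (0.59) and TOP2A (-0.18) were not called. In SKM-1 its counts were 2024 and 155. Leaving out single libraries ended the call of RFC4 (without either MOLM-14 library, adjusted p up to 0.0795). In the fit of all 6 libraries the call of RFC4 (adjusted p = 0.138) ended.

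The proteins of primary granules, which promyelocytes make, did not move as a group: 7 of 20 tested members were called higher and 6 lower (3 to 8 higher and 2 to 3 lower with 1 library left out), at a median log2 difference of 0.44. The serine protease family genes that lie side by side on chromosome 19 were higher in MOLM-14, ELANE most of all. AZU1 (azurocidin) had 62246 and 72004 in MOLM-14 and 7571 and 3344 in NOMO-1 (log2 difference 3.73 ± 0.31, adjusted p = 3.71e-04). PRTN3 (proteinase 3) had 24721 and 46043 in MOLM-14 and 6323 and 2229 in NOMO-1 (log2 difference 3.17 ± 0.50, adjusted p = 0.00414). PRSS57, a further neutrophil serine protease, had 7725 and 10775 in MOLM-14 and 62.3 and 25.5 in NOMO-1 (log2 difference 7.80 ± 0.40, adjusted p = 6.71e-05). MPO (myeloperoxidase) went the opposite way, with 53986 and 15869 in NOMO-1 and 1398 and 3922 in MOLM-14 (log2 difference -3.64 ± 0.67, adjusted p = 0.00716), and its NOMO-1 libraries were more than 3-fold apart. BPI, which binds bacterial endotoxin, had 10622 and 1957 in NOMO-1 and 172 and 236 in MOLM-14. The defensin DEFA4 had 2467 and 683 in NOMO-1 and 0 and 6.26 in MOLM-14. CTSG (cathepsin G), whose protease belongs to the same granules, was at 4186 and 9256 in MOLM-14 and 8565 and 9015 in NOMO-1 and was not called. LYZ (lysozyme) had 9581 and 14103 in NOMO-1 and 6865 and 3407 in MOLM-14. ELANE and MPO, both products of the promyelocyte, thus differed in opposite directions. MPO was present in both lines, whereas ELANE was all but absent in NOMO-1. The calls of PRTN3 (without either MOLM-14 library or the NOMO-1 NCAM1 shRNA library, adjusted p up to 0.106), MPO (without any 1 of the 4, adjusted p up to 0.127), BPI (without either MOLM-14 library, adjusted p up to 0.11), DEFA4 (without either NOMO-1 library, adjusted p up to 0.0725) and LYZ (without any 1 of the 4, adjusted p up to 0.287) ended when single libraries were left out. The calls of AZU1 (adjusted p = 0.0783) and PRTN3 (adjusted p = 0.209) ended in the fit of all 6 libraries. The calls of MPO (in the fit of all 6 libraries and in limma without a trend, adjusted p up to 0.269) and LYZ (in the fit of all 6 libraries, with no shRNA term, in limma without a trend, with the robust option and with no filter, adjusted p up to 0.235) ended under other settings.

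Most genes of neutrophil maturation and the larger share of the monocyte markers were higher in NOMO-1. Of the neutrophil genes, 9 of 12 tested members were called lower and the others were not called, at a median log2 difference of -3.76. CEBPE, the transcription factor of the granulocyte's later stages, had 2473 and 1678 in NOMO-1 and 132 and 101 in MOLM-14 (log2 difference -4.13 ± 0.20, adjusted p = 6.17e-05). CSF3R, the G-CSF receptor, had 36193 and 12997 in NOMO-1 and 8890.1 and 10448 in MOLM-14. CEACAM6, CD177 and FCGR3B (-6.20) were of this list, and CEACAM1 (-1.45) and ARG1 (-1.59) were not called. Among monocyte and macrophage markers 4 of 34 tested members were called higher and 20 lower (2 higher and 12 to 13 lower with 1 library left out), at a median log2 difference of -1.89. S100A9, a subunit of calprotectin, had 31402 and 28919 in NOMO-1 and 100.4 and 63.7 in MOLM-14 (log2 difference -8.54 ± 0.19, adjusted p = 2.59e-05). Its partner S100A8 had 7852 and 8476 in NOMO-1 and 64.7 and 36.5 in MOLM-14. FPR2, a formyl peptide receptor, had 2155 and 2273 in NOMO-1 and 3.35 and 5.22 in MOLM-14, and the lectin FCN1 (ficolin 1) had 647 and 428 in NOMO-1 and 1.12 and 0 in MOLM-14. Receptors of adhesion and of bacterial lipoprotein followed. ITGAM (CD11b) had 10102 and 7007 in NOMO-1 and 651 and 1144 in MOLM-14, and TLR2 had 7816 and 3801 in NOMO-1 and 1640.4 and 1097 in MOLM-14. In none of these did the lines overlap. With single libraries left out, the calls of CSF3R (without either MOLM-14 library or the NOMO-1 scrambled library, adjusted p up to 0.407), ITGAM (without the NOMO-1 scrambled library, adjusted p = 0.0532) and TLR2 (without either MOLM-14 library or the NOMO-1 scrambled library, adjusted p up to 0.135) ended. Fitting all 6 libraries together ended the calls of ITGAM (adjusted p = 0.092), TLR2 (adjusted p = 0.164) and S100A8 (adjusted p = 0.0937). Under other settings the call of CSF3R (in the fit of all 6 libraries, with no shRNA term, in limma without a trend, with the robust option, with no filter and with a filter of 50, adjusted p up to 0.167) ended.

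A few monocyte genes were higher in MOLM-14. VCAN (versican), a matrix proteoglycan, had 700.3 and 203 in MOLM-14 and 6.61 and 1.82 in NOMO-1. CD4, which monocytes carry as well as T cells, had 5163 and 6987 in MOLM-14 and 1052 and 654 in NOMO-1 (log2 difference 2.85 ± 0.27, adjusted p = 6.29e-04). The inhibitory receptor LILRB4 had 3629 and 2226 in MOLM-14 and 294 and 618 in NOMO-1. The lines did not overlap in any of these. CSF1R, the receptor of macrophage colony-stimulating factor, had 593 and 476 in MOLM-14 and 513 and 194 in NOMO-1 and was not called, nor were MS4A7 (0.41) and AIF1 (-0.87). CYBB, the catalytic subunit of the oxidase that phagocytes use to make superoxide, had 11586 and 14584 in NOMO-1 and 30.1 and 18.8 in MOLM-14 (log2 difference -9.03 ± 0.28, adjusted p = 2.60e-05). NCF4, a cytosolic subunit, was lower in MOLM-14 too (-1.44), while RAC2 was not called (-0.23). Of the S100 family, 6 of 13 tested members were called lower and the others were not called (3 to 5 lower with 1 library left out), at a median log2 difference of -0.51. S100A12 (-7.82) and S100Z (-6.05) accompanied S100A8 and S100A9, and S100A10 (0.33) and S100A11 (-0.32) were not called. Of dendritic cell markers, 3 of 13 tested members were called higher and 4 lower (1 to 2 higher and 1 to 3 lower with 1 library left out), at a median log2 difference of -0.19 (but 0.87 with a filter of 50, 0.48 under quantile normalization, 0.45 without the MOLM-14 NCAM1 shRNA library and 0.64 in the scrambled pair). In fits that lacked 1 library and the shRNA term, the calls of VCAN (without either NOMO-1 library), LILRB4 (without either MOLM-14 library or the NOMO-1 scrambled library) and S100Z (without either NOMO-1 library) ended. When all 6 libraries were fitted, the calls of LILRB4 (adjusted p = 0.3) and S100A12 (adjusted p = 0.0941) ended.

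Of transcription factors of the myeloid lineage, 18 of 44 tested members were called higher and 9 lower (6 to 12 higher with 1 library left out), at a median log2 difference of 0.70. IRF8, which directs monocyte and dendritic fates, had 36218 and 22926 in MOLM-14 and 7512 and 6601 in NOMO-1. RUNX1, a master regulator of blood formation, had 18704 and 16828 in MOLM-14 and 4252 and 3950.3 in NOMO-1 (log2 difference 2.11 ± 0.14, adjusted p = 1.62e-04). ZEB2, a zinc finger repressor, had 13190.2 and 14879 in MOLM-14 and 2177 and 2388 in NOMO-1 (log2 difference 2.62 ± 0.14, adjusted p = 8.13e-05). In each of the 3 both MOLM-14 libraries were above both NOMO-1 libraries. CEBPA, the granulocyte-monocyte regulator, was less abundant and also higher in MOLM-14, at 221 and 241 in MOLM-14 and 19.8 and 33.8 in NOMO-1. SPI1 (-0.20), IKZF1 (0.18) and GATA2 (-0.12) were not called. GATA1, a factor of the erythroid and megakaryocyte branch, had 208 and 100.4 in NOMO-1 and 3.35 and 2.09 in MOLM-14. GFI1B, a repressor of the same branch, had 422 and 203 in NOMO-1 and 2.23 and 0 in MOLM-14. NFE2, a further factor of that branch, was not called (-0.33). PRDM16, a factor of blood stem cells, had 517 and 232 in NOMO-1 and 0 and 0 in MOLM-14. Of stem and progenitor genes, 3 of 17 tested members were called higher and 9 lower (1 to 3 higher and 5 to 6 lower with 1 library left out), at a median log2 difference of -1.06. The members' summed counts went the other way, at 58882 and 67870 in MOLM-14 against 51891 and 58104 in NOMO-1. The members named next were among those called lower. SPINK2, a protease inhibitor, had 2002 and 1475 in NOMO-1 and 8.92 and 19.8 in MOLM-14. The adhesion receptor GPR56 (now ADGRG1) had 803 and 644 in NOMO-1 and 5.58 and 4.18 in MOLM-14. KIT, the stem cell factor receptor, had 508 and 1325 in NOMO-1 and 137 and 168 in MOLM-14. Leaving out single libraries ended the calls of IRF8 (without either NOMO-1 library, adjusted p up to 0.0705), CEBPA (without the MOLM-14 NCAM1 shRNA library, adjusted p = 0.0526) and KIT (without either MOLM-14 library or the NOMO-1 NCAM1 shRNA library, adjusted p up to 0.141). In the fit of all 6 libraries the calls of IRF8 (adjusted p = 0.241) and KIT (adjusted p = 0.0744) ended.

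**Figure D3:**
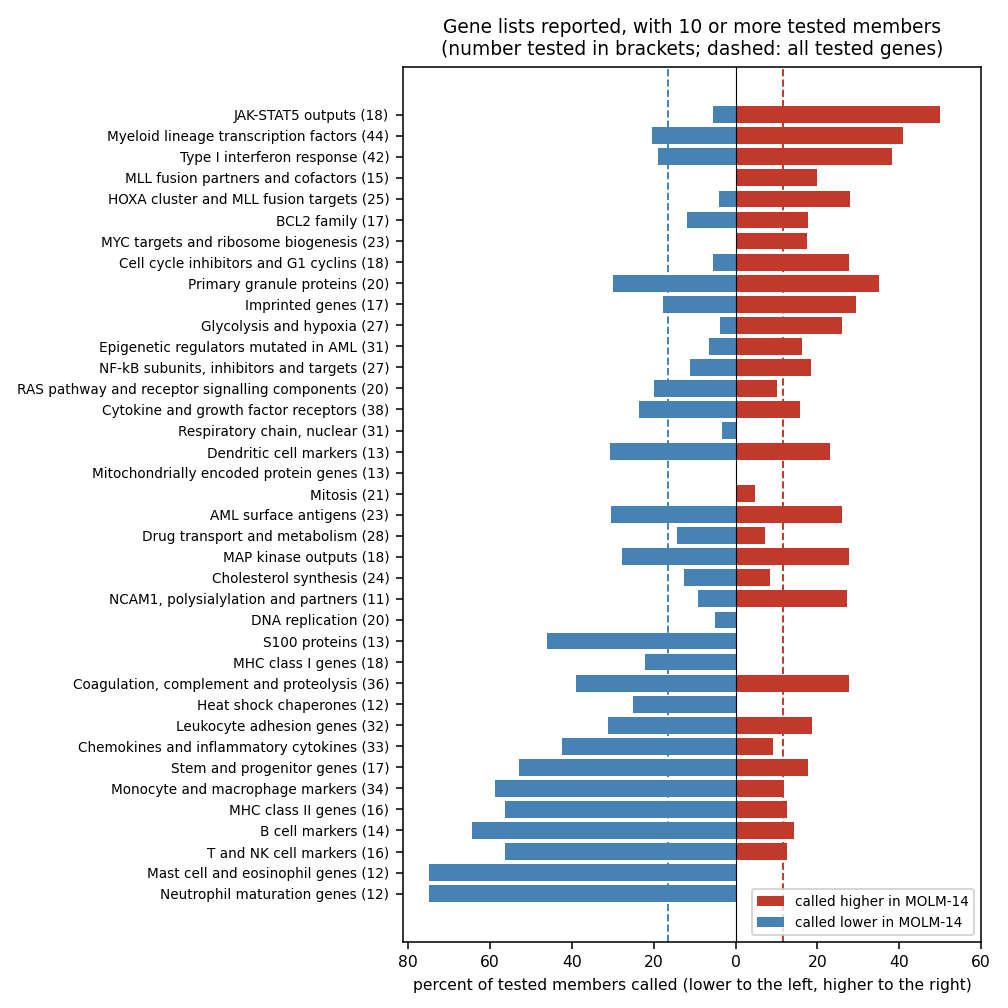
Percent of tested members called higher in MOLM-14 (red, to the right) and lower (blue, to the left) for the gene lists reported here with 10 or more tested members, ordered by median log2 difference, with dashed lines at 11.7% and 16.6%, the shares over all tested genes. Neutrophil, mast cell, T cell, B cell, class II and monocyte lists extend furthest to the left and JAK-STAT5 outputs furthest to the right.

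Of 16 MHC class II genes tested, 9 were called lower in MOLM-14 and 2 higher, HLA-DOB among them. Class II molecules present peptides from ingested proteins, and the coactivator CIITA switches on their genes through a shared promoter module (the S, X and Y boxes) whose Y box is a CCAAT sequence. The promoters of 4 members are shown because 3 of the genes were lower and 1 higher in MOLM-14, with this letter pattern in capitals wherever it occurs on either strand (CCAAT, or ATTGG on the other strand). They are the 250 bases before the annotated start, read in the direction of the gene, from RefSeq on GRCh38.p14, which is not the build of the deposited counts.
CD74, chr5:150412911-150413160, minus strand: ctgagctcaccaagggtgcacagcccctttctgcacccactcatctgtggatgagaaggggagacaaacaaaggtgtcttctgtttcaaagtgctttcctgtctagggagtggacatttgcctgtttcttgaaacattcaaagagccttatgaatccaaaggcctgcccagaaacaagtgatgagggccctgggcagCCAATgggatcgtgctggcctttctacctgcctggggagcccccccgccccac
HLA-DRB1, chr6:32589849-32590098, minus strand: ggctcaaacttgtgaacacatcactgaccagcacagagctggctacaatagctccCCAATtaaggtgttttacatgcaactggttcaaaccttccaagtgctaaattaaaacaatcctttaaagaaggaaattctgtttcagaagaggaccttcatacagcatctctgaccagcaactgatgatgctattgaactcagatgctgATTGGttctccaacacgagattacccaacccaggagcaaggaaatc
HLA-DMB, chr6:32941029-32941278, minus strand: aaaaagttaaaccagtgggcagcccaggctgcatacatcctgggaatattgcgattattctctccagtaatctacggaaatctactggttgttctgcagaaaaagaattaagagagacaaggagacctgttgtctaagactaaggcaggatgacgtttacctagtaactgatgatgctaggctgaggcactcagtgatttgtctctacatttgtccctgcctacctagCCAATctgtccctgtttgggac
HLA-DOB, chr6:32817003-32817252, minus strand: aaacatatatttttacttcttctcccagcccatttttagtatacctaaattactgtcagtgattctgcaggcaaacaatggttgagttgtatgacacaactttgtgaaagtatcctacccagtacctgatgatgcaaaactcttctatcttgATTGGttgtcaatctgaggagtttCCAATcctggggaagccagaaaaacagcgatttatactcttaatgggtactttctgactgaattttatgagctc
The pattern occurred in 12 of the 15 list members with a promoter in the table (80.0%) and in 32.01% of all 35116 promoters of that length. It stood in all 4 promoters shown, HLA-DOB included, and was not found in that of HLA-DPA1, which was lower in MOLM-14, nor in those of RFXAP and RFXANK. A match is a description of letters and not a measured binding site.

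Over the list, 2 of 16 tested members were called higher and 9 lower (1 to 2 higher and 5 to 8 lower with 1 library left out), at a median log2 difference of -1.92. HLA-DRA, the alpha chain of HLA-DR, had 17209 and 15675 in NOMO-1 and 214 and 446 in MOLM-14 (log2 difference -5.73 ± 0.29, adjusted p = 6.33e-05). HLA-DPA1, the alpha chain of HLA-DP, had 6092 and 5469 in NOMO-1 and 49.1 and 62.6 in MOLM-14 (log2 difference -6.68 ± 0.22, adjusted p = 2.60e-05). CD74, the chaperone of class II molecules, had 36632 and 33278 in NOMO-1 and 6884 and 9075 in MOLM-14 (log2 difference -2.14 ± 0.17, adjusted p = 3.35e-04). HLA-DMB, a chain of the peptide exchange factor, had 434 and 766 in NOMO-1 and 99.3 and 116 in MOLM-14. HLA-DRB1, a beta chain of HLA-DR, had 852 and 770.0 in NOMO-1 and 74.7 and 153 in MOLM-14. CIITA itself had 1621 and 1376 in NOMO-1 and 345 and 614 in MOLM-14 (log2 difference -1.70 ± 0.28, adjusted p = 0.00474). All these were higher in both NOMO-1 libraries than in either MOLM-14 library. HLA-DOB, the beta chain of the inhibitory HLA-DO, was the reverse, with 454 and 525 in MOLM-14 and 15.1 and 14.6 in NOMO-1 (log2 difference 4.95 ± 0.30, adjusted p = 1.14e-04). The DNA-binding factors RFX5 (0.081) and RFXANK (0.93) were not called. Reads of HLA genes depend on how near-identical copies and alleles were counted, which leaves HLA-DRB1 and HLA-DRB5 uncertain. The calls of CIITA (without the MOLM-14 scrambled library or either NOMO-1 library, adjusted p up to 0.122), HLA-DMB (without either MOLM-14 library, adjusted p up to 0.0761) and HLA-DRB1 (without either NOMO-1 library, adjusted p up to 0.0775) ended when single libraries were left out. The calls of CIITA (adjusted p = 0.111) and HLA-DMB (adjusted p = 0.0952) ended in the fit of all 6 libraries.

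Of MHC class I genes, 4 of 18 tested members were called lower and the others were not called (0 to 5 lower with 1 library left out), at a median log2 difference of -0.51. The share called lower was 22.2%, against 16.6% of all genes. B2M, the shared light chain, had 92999 and 82773 in NOMO-1 and 43309 and 42812 in MOLM-14 (log2 difference -1.03 ± 0.14, adjusted p = 0.00221), HLA-B was not called (-0.49), and HLA-F had 1306 and 808 in NOMO-1 and 84.8 and 189 in MOLM-14. Of interferon-induced genes, 16 of 42 tested members were called higher and 8 lower (4 to 6 higher and 0 to 3 lower with 1 library left out), at a median log2 difference of 0.64. IFIT1, an antiviral RNA-binding protein, had 664 and 918 in MOLM-14 and 8.50 and 20.1 in NOMO-1. IFIT2, of the same family, had 2109 and 2673 in MOLM-14 and 58.6 and 40.1 in NOMO-1, and IFIT3 was higher too (4.03). The 2'-5' oligoadenylate synthetase OAS3 (-1.68), IFITM1 (-2.26) and the guanylate-binding GBP1 (-4.10) were lower. Of chemokine and cytokine genes, 3 of 33 tested members were called higher and 14 lower (0 to 1 higher and 8 to 12 lower with 1 library left out), at a median log2 difference of -0.91. The cytokine IL32 had 7044 and 4883 in NOMO-1 and 130.5 and 111 in MOLM-14 (log2 difference -5.60 ± 0.19, adjusted p = 2.60e-05). CCL2, which attracts monocytes, had 130.3 and 294 in NOMO-1 and 4.46 and 5.22 in MOLM-14, and CXCL1, which attracts neutrophils, had 101 and 56.6 in NOMO-1 and 1.12 and 0 in MOLM-14. CCL5 was among the most abundant and was not called (0.043). With single libraries left out, the calls of B2M (without either MOLM-14 library or the NOMO-1 scrambled library, adjusted p up to 0.137, log2 difference from -0.94), HLA-F (without the MOLM-14 scrambled library or either NOMO-1 library, adjusted p up to 0.0946), OAS3 (without the MOLM-14 scrambled library or either NOMO-1 library, adjusted p up to 0.441), IFITM1 (without either MOLM-14 library or the NOMO-1 NCAM1 shRNA library, adjusted p up to 0.0906) and GBP1 (without either MOLM-14 library or the NOMO-1 NCAM1 shRNA library, adjusted p up to 0.139) ended. Fitting all 6 libraries together ended the call of CCL2 (adjusted p = 0.0777). Under other settings the calls of B2M (on the authors' transformed values, adjusted p = 0.00144, log2 difference from -0.92) and OAS3 (in the fit of all 6 libraries, with no shRNA term, in limma without a trend and with no filter, adjusted p up to 0.289) ended.

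At the cell surface, PVR (CD155), a ligand of T and NK cell receptors, had 926 and 807 in MOLM-14 and 2.83 and 1.82 in NOMO-1 (log2 difference 8.04 ± 0.33, adjusted p = 3.85e-05). CD38, an ectoenzyme and antibody target, had 3525 and 5026 in MOLM-14 and 1809 and 683 in NOMO-1. CD52, the target of alemtuzumab, had 1770.1 and 1617 in NOMO-1 and 119 and 196 in MOLM-14 (log2 difference -3.46 ± 0.26, adjusted p = 2.51e-04). CD47 (-0.36) was not called, and of the leukaemia surface antigens 6 of 23 tested members were called higher and 7 lower (3 to 7 higher and 1 to 4 lower with 1 library left out), at a median log2 difference of -0.20 (but 0.083 without the NOMO-1 scrambled library). NCAM2, the paralogue of NCAM1, had 1145 and 2115 in MOLM-14 and 1.89 and 14.6 in NOMO-1 (log2 difference 7.86 ± 0.42, adjusted p = 7.60e-05), so both NCAM genes were higher in MOLM-14. FGFR1, a receptor that NCAM1 binds, had 5784 and 6133 in MOLM-14 and 462 and 611 in NOMO-1 (log2 difference 3.48 ± 0.17, adjusted p = 6.23e-05). ROBO1, an axon guidance receptor, had 1741 and 2165 in NOMO-1 and 1.12 and 8.35 in MOLM-14. Of adhesion genes, 6 of 32 tested members were called higher and 10 lower (0 to 2 higher and 4 to 7 lower with 1 library left out), at a median log2 difference of -0.75 (but 0.064 without the NOMO-1 scrambled library). The adhesion calls came to 18.75% higher and 31.25% lower, against 11.7% and 16.6% of all genes. The integrin ITGA3 had 536 and 529 in NOMO-1 and 3.35 and 5.22 in MOLM-14, and the tetraspanin CD9 had 308 and 281 in MOLM-14 and 36.8 and 10.04 in NOMO-1. The integrins ITGAL (0.48) and ITGA4 (-0.79) were not called. Of coagulation, complement and proteolysis genes, 10 of 36 tested members were called higher and 14 lower (4 to 7 higher and 6 to 9 lower with 1 library left out), at a median log2 difference of -0.58. MMP14, a membrane-bound matrix metalloproteinase, had 15025 and 7254 in MOLM-14 and 57.6 and 22.8 in NOMO-1 (log2 difference 8.13 ± 0.20, adjusted p = 2.59e-05). MMP2, which MMP14 activates, had 643 and 597 in MOLM-14 and 1.89 and 1.82 in NOMO-1. TIMP3, an inhibitor of such enzymes, had 2508 and 796 in NOMO-1 and 1.12 and 0 in MOLM-14. SERPINB2, an inhibitor of urokinase, had 1222 and 735 in NOMO-1 and 4.46 and 9.40 in MOLM-14. The complement receptor CR1 had 4442 and 528 in NOMO-1 and 72.5 and 12.5 in MOLM-14. The 2 metalloproteinases were thus higher in MOLM-14 and these 3 genes in NOMO-1. In fits that lacked 1 library and the shRNA term, the calls of CD38 (without either MOLM-14 library or the NOMO-1 NCAM1 shRNA library), ROBO1 (without the NOMO-1 NCAM1 shRNA library), CD9 (without either MOLM-14 library) and CR1 (without any 1 of the 4) ended. When all 6 libraries were fitted, the calls of CD52 (adjusted p = 0.0728) and CR1 (adjusted p = 0.117) ended. Changed settings ended the call of CD38 (in the fit of all 6 libraries, in limma without a trend and with no filter, adjusted p up to 0.0925).

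Of the T and NK cell genes, 2 of 16 tested members were called higher and 9 lower (0 higher and 5 to 8 lower with 1 library left out), at a median log2 difference of -2.52, and the members' summed counts were 3291 and 2133 in MOLM-14 against 7333 and 5609 in NOMO-1. The CD3 chain CD3D had 3789 and 2961 in NOMO-1 and 20.1 and 20.9 in MOLM-14, and alone made up most of the gap between these sums. CD3G had 168 and 155 in NOMO-1 and 0 and 0 in MOLM-14. The T cell kinase LCK had 539 and 229.9 in NOMO-1 and 0 and 1.04 in MOLM-14. The granule protease GZMA had 223 and 472 in NOMO-1 and 0 and 0 in MOLM-14. CD3G, LCK and GZMA were at or near 0 reads in MOLM-14 and so passed the filter only through NOMO-1. The called members named here were all lower, and NKG7 was not called (0.058). Of B cell genes, 2 of 14 tested members were called higher and 9 lower (1 to 2 higher and 3 to 5 lower with 1 library left out), at a median log2 difference of -2.09. PAX5, the regulator of B cell identity, had 1194 and 1032 in MOLM-14 and 3.78 and 0 in NOMO-1 (log2 difference 8.99 ± 0.53, adjusted p = 1.10e-04). EBF1, its partner in the B cell programme, had 146 and 266 in MOLM-14 and 10.4 and 21.9 in NOMO-1. The surface genes went the other way. MS4A1 (CD20) had 144 and 1988 in NOMO-1 and 0 and 5.22 in MOLM-14, and CD22 had 422 and 567 in NOMO-1 and 34.6 and 3.13 in MOLM-14. The complement receptor CR2 had 1689.8 and 243 in NOMO-1 and 0 and 0 in MOLM-14. Of mast cell and eosinophil genes, 9 of 12 tested members were called lower and the others were not called (5 to 6 lower with 1 library left out), at a median log2 difference of -2.89, or -2.67 with genes at 0 reads set to their bound. EPX (eosinophil peroxidase) had 4205 and 1321 in NOMO-1 and 86.98 and 82.5 in MOLM-14. CLC (galectin 10) had 470.4 and 449 in NOMO-1 and 0 and 2.09 in MOLM-14. Of erythroid and globin genes, 1 of 5 tested members were called lower and the others were not called, at a median log2 difference of 0.39 (but -0.58 with no filter, -0.10 with a filter of 50 and -0.0076 without the NOMO-1 NCAM1 shRNA library). Of megakaryocyte and platelet genes, 1 of 8 tested members were called higher and 2 lower (0 higher and 0 to 1 lower with 1 library left out), at a median log2 difference of -0.10 (but 0.65 under quantile normalization, 0.40 without the MOLM-14 NCAM1 shRNA library, 0.65 without the NOMO-1 scrambled library and 0.28 in the NCAM1 shRNA pair). Few members of these 2 lists were called. Whether these transcripts sit in all cells of a culture or in a few was not tested. Leaving out single libraries ended the calls of EBF1 (without the MOLM-14 NCAM1 shRNA library or the NOMO-1 scrambled library, adjusted p up to 0.0636), MS4A1 (without any 1 of the 4, adjusted p up to 0.117) and CD22 (without either NOMO-1 library, adjusted p up to 0.147). In the fit of all 6 libraries the calls of EBF1 (adjusted p = 0.0519) and CD22 (adjusted p = 0.0851) ended.

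Of 31 nuclear respiratory chain genes limma called 1, ATP5C1, an ATP synthase subunit (-1.04). Of 13 mitochondrially encoded genes it called 0, with 9 at an unadjusted p under 0.05 (50.8% of all tested genes had one), and edgeR and DESeq2 called 0 as well. Of MYC targets and ribosome biogenesis genes, 4 of 23 tested members were called higher and the others were not called (0 to 4 higher with 1 library left out), at a median log2 difference of 0.48. Of glycolysis and hypoxia genes, 7 of 27 tested members were called higher and 1 lower (1 to 7 higher and 0 to 1 lower with 1 library left out), at a median log2 difference of 0.42 (but -0.18 without the NOMO-1 NCAM1 shRNA library and -0.015 in the scrambled pair). The calls came to 25.9% higher and 3.70% lower, against 11.7% and 16.6% of all genes. For the MYC targets the share called higher was 17.4%. The glucose transporter SLC2A3 had 18512 and 12769 in MOLM-14 and 7264 and 1216 in NOMO-1, and its NOMO-1 libraries were themselves nearly 6-fold apart. Of cholesterol synthesis genes, 2 of 24 tested members were called higher and 3 lower (0 higher and 0 to 1 lower with 1 library left out), at a median log2 difference of -0.29 (but 0.11 without the MOLM-14 NCAM1 shRNA library and 0.33 without the NOMO-1 scrambled library). Of drug transport and metabolism genes, 2 of 28 tested members were called higher and 4 lower (0 to 2 higher and 1 to 4 lower with 1 library left out), at a median log2 difference of -0.21. These shares, 7.14% higher and 14.3% lower, were both under those of all genes. CDA, which inactivates cytarabine, the backbone of treatment for this leukaemia, had 1364 and 520.0 in NOMO-1 and 7.81 and 2.09 in MOLM-14 (log2 difference -7.34 ± 0.31, adjusted p = 4.24e-05). Topoisomerase genes TOP2A and TOP2B (0.15) were not called. Among BCL2 family genes, BCL2 (0.49) and MCL1 (0.64) were not called and BCL2L11 (BIM) had 5850.2 and 4620.4 in MOLM-14 and 2217 and 2471 in NOMO-1. The calls of ATP5C1 (without any 1 of the 4, adjusted p up to 0.179), SLC2A3 (without either MOLM-14 library or the NOMO-1 NCAM1 shRNA library, adjusted p up to 0.336) and BCL2L11 (without any 1 of the 4, adjusted p up to 0.103) ended when single libraries were left out. The call of BCL2L11 (adjusted p = 0.0537) ended in the fit of all 6 libraries. The calls of ATP5C1 (in the fit of all 6 libraries and on the authors' transformed values, adjusted p up to 0.101, log2 difference from -0.93) and SLC2A3 (in the fit of all 6 libraries, with no shRNA term and in limma without a trend, adjusted p up to 0.115) ended under other settings.

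Gene position, which the choice of genes did not use, gathered part of the differences. Gene order was read from GENCODE v29, and a run was defined as at least 4 consecutive tested protein-coding genes that were all called and at least 4-fold apart in one direction. There were 23 runs with 118 genes among 13518, of which 5 were higher in MOLM-14 and 18 lower. With 1 library left out, 11 to 14 of the 23 still held at least 4 such genes in a row, as did 12 in the fit of all 6 libraries. The longest higher run held 10 genes on chromosome 9 and began with the gene next to MLLT3: FOCAD, PTPLAD2, KLHL9, MTAP, TUSC1, CAAP1, PLAA, IFT74, MOB3B and C9orf72. MTAP, which recycles methylthioadenosine and lies beside CDKN2A, had 1504 and 1233 in MOLM-14 and 3.78 and 4.56 in NOMO-1 and 3282 and 2924 in SKM-1. CAAP1, an apoptosis inhibitor, had 2099 and 2118 in MOLM-14 and 0.945 and 0 in NOMO-1. C9orf72, an autophagy regulator, had 1376 and 1871 in MOLM-14 and 0.945 and 0.912 in NOMO-1. Over the 10 genes NOMO-1 had 0 to 6.61 normalized counts, MOLM-14 112 to 2833, and SKM-1 163 to 5456. On one side MLLT3 itself was present in NOMO-1, and on the other the next tested gene, ACO1, had 1383 and 1471 in MOLM-14 and 1365 and 1155 in NOMO-1 (0.18). Within the stretch CDKN2A and CDKN2B were below the filter in both lines, CDKN2A at 2.23 and 0 in MOLM-14 and 1.89 and 0.912 in NOMO-1. On the far side of MLLT3, the ribosomal protein gene RPS6 had 167077 and 167530 in MOLM-14 and 44223 and 51416 in NOMO-1 (log2 difference 1.81 ± 0.14, adjusted p = 3.02e-04) and the lipid droplet gene PLIN2 3313 and 1804 in MOLM-14 and 17.9 and 7.30 in NOMO-1. All 10 genes of the run remained called and at least 4-fold apart with any 1 library left out and in the fit of all 6 libraries. Copy number was not measured here.

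**Figure D4:**
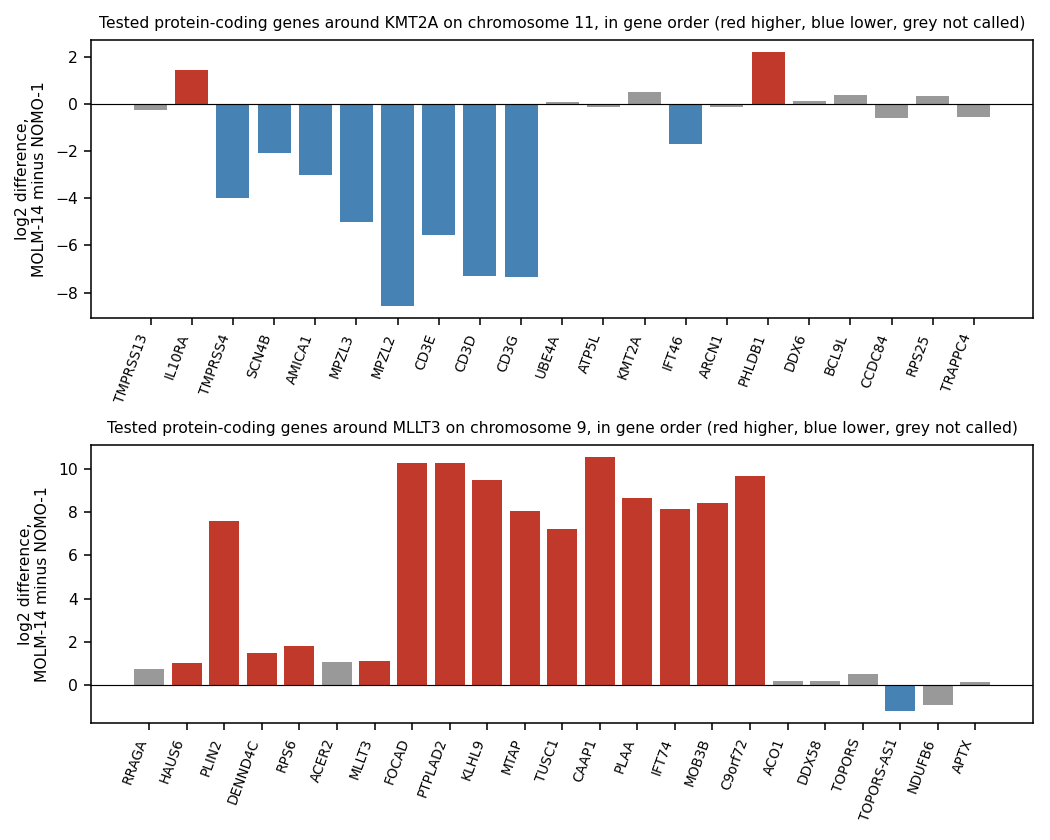
Log2 difference, MOLM-14 minus NOMO-1 (vertical), of tested protein-coding genes in their order along chromosome 11 around KMT2A and along chromosome 9 around MLLT3, in red where called higher, blue where called lower and grey where not called. The 10 genes to the right of MLLT3 stand at 7 or more and end sharply at ACO1, and the 8 genes from TMPRSS4 to CD3G are all below -2 and end 2 genes before KMT2A.

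Near the other fusion gene the run was lower in MOLM-14. On chromosome 11 a run of 8 genes, TMPRSS4, SCN4B, AMICA1, MPZL3, MPZL2, CD3E, CD3D and CD3G, was called. MPZL2, an epithelial and T cell adhesion protein, had 458 and 654 in NOMO-1 and 1.12 and 0 in MOLM-14, and CD3E 151 and 143 in NOMO-1 and 2.23 and 2.09 in MOLM-14. The run ended at UBE4A (0.082) and ATP5L (-0.12), which were not called, and KMT2A followed. With 1 library left out, 5 to 7 of the 8 genes remained called and at least 4-fold apart, in an unbroken stretch of 5 to 7, and 5 did in the fit of all 6 libraries, in a stretch of 4. The longest lower run held 11 keratin genes on chromosome 12, from KRT7 to KRT8, and KRT8, an epithelial intermediate filament gene, had 1913 and 2961 in NOMO-1 and 118 and 191 in MOLM-14. With 1 library left out, 8 to 10 of the 11 remained so, in an unbroken stretch of 7 to 9, and 9 did in the fit of all 6 libraries, in a stretch of 7. Of 15 tested keratins, a family looked at after the values had been seen, 13 were called lower and the others were not called. KRT72, KRT73, KRT1 and KRT77 had 0 reads in both MOLM-14 libraries. They passed the filter only through NOMO-1 and could only come out lower, so the keratin counts are partly set by the filter. Further lower runs held the CXCL cytokine genes with IL8, the interleukin receptor genes IL1RL1, IL18R1 and IL18RAP, the HLA-DR genes, the STEAP metalloreductases, the purinergic receptors P2RY12, P2RY13 and P2RY14, and CYBB with its neighbours on the X chromosome. Higher runs held the serine protease family genes ELANE, PRTN3 and AZU1 and clusters of zinc finger genes on chromosome 19. In the fit of all 6 libraries the run with ELANE kept 1 of its 4 genes and that with IL1RL1 2 of 4. The run with the CXCL genes kept 4 of 6 there, and that with the purinergic receptors 5 of 6. The run with the STEAP genes kept 4 of 5, and none of these 3 runs held 4 in a row. The run with CYBB kept 4 of 4 there but was no longer a run with any 1 library left out. The run with the HLA-DR genes kept 4 of 5 there. It was no longer a run without the MOLM-14 scrambled library or without either NOMO-1 library. With single libraries left out, the calls of TMPRSS4 (without either MOLM-14 library or the NOMO-1 scrambled library, adjusted p up to 0.0886), SCN4B (without the MOLM-14 scrambled library or either NOMO-1 library, adjusted p up to 0.261), AMICA1 (without either NOMO-1 library, adjusted p up to 0.0905) and KRT7 (without either MOLM-14 library, adjusted p up to 0.254) ended. Fitting all 6 libraries together ended the call of AMICA1 (adjusted p = 0.212). Under other settings the calls of SCN4B (in the fit of all 6 libraries, under quantile normalization, with no shRNA term, in limma without a trend, in edgeR, in DESeq2, with a pseudocount of 0.5 and with no filter, adjusted p up to 0.395) and KRT7 (in the fit of all 6 libraries, under quantile normalization, with no shRNA term, in limma without a trend, in DESeq2 and with no filter, adjusted p up to 0.213) ended.

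By whole chromosome the differences were small. Over 11268 protein-coding genes with a mean of 100 or more the median difference was 0.022. It was 0.58 on chromosome 21 (104 genes), 0.46 on chromosome 6 (585), 0.45 on chromosome 12 (624), 0.43 on chromosome 19 (839) and 0.40 on chromosome 13 (211), and it was -0.30 on chromosome 3 (637) and -0.19 on the X chromosome (356). On chromosome 21, which carries RUNX1, 33 genes were called higher (31.7%) and 10 lower (9.62%), against 10.5% and 13.4% over all 11268. The scrambled and the NCAM1 shRNA pairs gave medians of the same sign on each of these 7 chromosomes. These are descriptions across genes, which are not independent replicates.

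**Figure D5:**
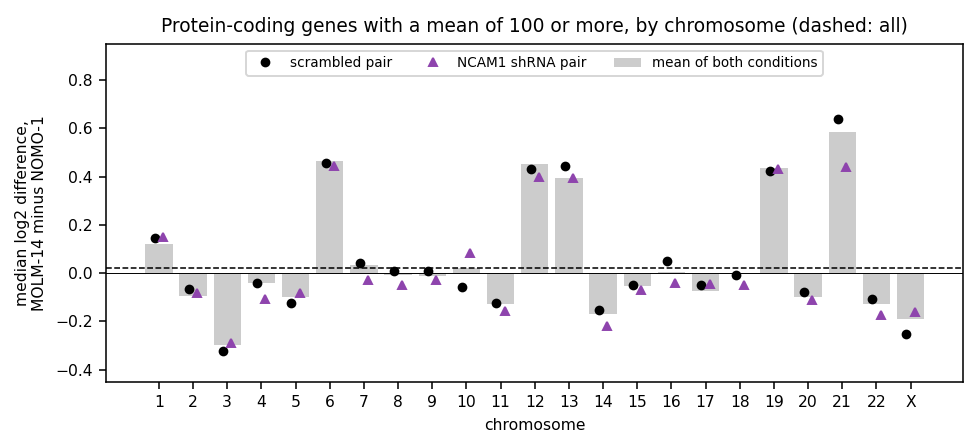
Median log2 difference, MOLM-14 minus NOMO-1 (vertical), of protein-coding genes with a mean of 100 or more on each chromosome, as a grey bar for both conditions together, a black circle for the scrambled pair and a purple triangle for the NCAM1 shRNA pair, with a dashed line at 0.022 for all 11268 genes. Chromosomes 6, 12, 13, 19 and 21 lie highest and chromosome 3 lowest.

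Imprinted genes were called in both directions, 29.4% higher and 17.6% lower, against 11.7% and 16.6% of all genes. The lower share was thus near that of all genes. Of these, 5 of 17 tested members were called higher and 3 lower (3 to 4 higher and 1 to 3 lower with 1 library left out), at a median log2 difference of 0.42. SNRPN, a splicing protein gene of the Prader-Willi region, had 134 and 105 in MOLM-14 and 0 and 0 in NOMO-1. SNHG14, a long noncoding RNA of the same region of chromosome 15, had 7576 and 6545 in MOLM-14 and 5.67 and 1.82 in NOMO-1. PWAR6, another noncoding RNA there, had 2114 and 1830.0 in MOLM-14 and 0 and 0 in NOMO-1. SNRPN was at least 42.9-fold higher in MOLM-14 and PWAR6 at least 708-fold. PEG3, a zinc finger gene expressed from the paternal copy, had 175 and 88.7 in MOLM-14 and 0 and 0 in NOMO-1, at least 47.4-fold higher. NAP1L5 had 248 and 320.5 in MOLM-14 and 3.78 and 0.912 in NOMO-1. These 5 were present in MOLM-14 and all but absent in NOMO-1. Against them, MEST had 1469 and 589 in NOMO-1 and 13.4 and 32.4 in MOLM-14. DLK1, a Notch-like surface protein, had 58.6 and 18.2 in NOMO-1 and 0 and 0 in MOLM-14, and the maternally expressed RNA H19 had 314 and 54.7 in NOMO-1 and 10.04 and 19.8 in MOLM-14. GNAS (0.19) and PLAGL1 (0.22) were not called. SKM-1 expressed PWAR6 too, at 1734 and 206. Without the strand setting of the counting, reads of the overlapping SNHG14 and PWAR6 cannot be separated. In fits that lacked 1 library and the shRNA term, the calls of MEST (without the NOMO-1 scrambled library) and H19 (without either MOLM-14 library or the NOMO-1 scrambled library) ended. When all 6 libraries were fitted, the call of NAP1L5 (adjusted p = 0.0537) ended. Changed settings ended the call of H19 (in the fit of all 6 libraries, in limma without a trend and with no filter, adjusted p up to 0.165).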

How the data were processed

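Gene-level RNA sequencing counts of the scrambled and NCAM1 shRNA libraries of MOLM-14 and NOMO-1 were compared (2 libraries a line). Libraries were made with an Illumina TruSeq RNA v2 kit and read as pairs of 100 bases, per the labels. As deposited, the signal values are gene read counts scaled by the authors with a size factor for each library. A transformed version on a log2 scale, also deposited by the authors, served only as an alternative. The authors' tools, per the submitters' processing notes, include STAR, HTSeq 0.6.1p1, bcl2fastq 1.8.4 and DESeq2 1.12.4, with build hg19. For settings, annotation and strandedness, nothing is given in the sources used here, and overlapping or near-identical genes (HLA, keratin and zinc finger genes, pseudogene copies) are uncertain.

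Within a library the values were whole multiples of its smallest value, so whole reads could be recovered for 100% of values at a tolerance of 0.001, at a depth of 41916991 to 45542099 reads. Genes with a mean of 10 or more were tested with limma 3.58.1 in R 4.3.3 (lmFit and a trended eBayes, two-sided), with line and shRNA as terms, on log2 of the normalized count plus 1. The fit has 1 residual and 5.13 prior degrees of freedom. The added 1 shrinks the folds of genes with few reads. Calls needed a Benjamini-Hochberg adjusted p under 0.05 over all 19263 genes and at least 2-fold. The shRNA term pairs libraries by condition, as the labels give it. A fold against 0 reads is a bound, with 3 reads set in each such library, and covers counting error only.

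Named genes were 8 fixed ones, the 15 largest differences in each direction at a mean of 100 or more (Y-linked genes, XIST, pseudogenes, clone-type names and multigene copies passed over), up to 4 called and 2 uncalled members of each list, genes at 0 reads in a line, members of runs, and further genes whose role is described, which were chosen after their values had been seen. There were 46 lists with 1101 entries, of which 1050 were in the table. The members and lists were chosen with earlier results of these data known. Lists are described by counts and medians, with no set test. Gene order and type came from GENCODE v29, which is on another build, matched for 97.0% of tested genes, so no gene coordinates of the counts are given. Promoters came from RefSeq.

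The alternatives tried were the deposited log2 values, scaling to total counts or to equal quantiles, a pseudocount of 0.5 or 8, a filter of 50 or none, leaving out the shRNA term, eBayes with the robust option or with no trend, edgeR 4.0.16 (quasi-likelihood, TMM) or DESeq2 1.42.0 on the recovered reads, all 6 libraries in 1 fit, other folds, each condition alone, and each library left out (without the shRNA term, since 3 libraries leave no residual otherwise). The steps were tested on simulated data. IL3RA and CSF2RA were not analysed here. Some genes, and the lists built around them, are not reported here.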

Additional observations from a re-analysis of the deposited data

Results flagged for a closer look

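Of the 421 named genes, 6 had a mean of 100 or more and opposite ratios of the 2 conditions in the 2 lines. In each, the NCAM1 shRNA library lay at least 2-fold above the scrambled one in one line and at least 2-fold below it in the other. Each line has 1 library per condition, so the difference between the lines was not tested. MPO, the peroxidase of primary granules, had a log2 ratio of shRNA to scrambled of 1.49 in MOLM-14 and -1.77 in NOMO-1. DEFA4, a defensin of the same granules, had 2.86 and -1.85, from counts near 0 in MOLM-14. The T cell kinase LCK had 1.03 and -1.23, also from counts near 0 in MOLM-14. MEST, an imprinted gene, had 1.21 and -1.32. The aldo-keto reductase AKR1C3 had 1.69 and -1.17, again from few reads in MOLM-14. STEAP4, a metalloreductase, had -1.08 in MOLM-14 and 1.28 in NOMO-1, the only one of the 6 with this order, which in MOLM-14 rests on 1 read in the scrambled library against 0 reads.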

How the results depend on the processing

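The 5452 calls became 2786 (1078 higher, 1708 lower) in the fit of all 6 libraries, where the spread within SKM-1 enters, and 2963 (940 higher, 2023 lower) at 4-fold or more. With 1 library left out they were 2146 to 3381, with 667 to 1576 higher and 1479 to 1893 lower. With any fold 3741 genes were called higher, and with a filter of 50, under which 14594 genes were tested, 2125 were called lower. The count stayed within 1.5 times of 5452 under every other alternative run, from 4143 in DESeq2 to 6500 genes at 2-fold in the scrambled pair alone, and was 5598 in edgeR. With no shRNA term (no replicate block) it was 4962. Scaling moved the balance: 41.3% of calls were higher in MOLM-14 in the main analysis, 34.4% under total-count scaling, where the median of all genes was -0.14, and 51.2% under quantile normalization, where it was 0.090. No named gene changed sign past the threshold under any alternative. The named genes include genes that were not called, which had no call to lose. Of 421 named genes, 93 lost their call in the 6-library fit, 83 to 103 with 1 library left out, 16 in DESeq2, 1 in edgeR and 19 without the shRNA term. Medians of the 22 lists at 0.5 or more in size kept their sign under every alternative, except the leukocyte adhesion genes, at 0.064 without the NOMO-1 scrambled library. A gene at 0 reads in a line of 41916991 reads or more is limited only to the level of 3 reads a library.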

Other observations

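The lines were also far apart in 3 metabolic enzymes, picked one by one after their values had been seen and standing for no group. ASS1, which makes argininosuccinate and decides whether a cell can make its own arginine, had 23928 and 16014 in MOLM-14 and 28.3 and 33.8 in NOMO-1 (log2 difference 9.26 ± 0.25, adjusted p = 2.60e-05), although its many pseudogene copies leave the count uncertain. CBS, the first enzyme of transsulfuration from homocysteine to cysteine, had 3064 and 2582 in MOLM-14 and 1.89 and 5.47 in NOMO-1 (log2 difference 9.35 ± 0.40, adjusted p = 4.22e-05). ALDH1L2, which oxidises formyl-tetrahydrofolate in mitochondria, had 12275 and 8189.5 in MOLM-14 and 10.4 and 9.12 in NOMO-1. NOMO-1 thus held few reads of these 3 genes in either condition. SKM-1 held 7101 and 487 of ASS1, 3911 and 1482 of CBS and 1896 and 176 of ALDH1L2, so its 2 libraries were themselves far apart.

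Zinc finger genes of chromosome 19, a family chosen after values had been seen, were called in 47.2% of 199 tested members, against 28.3% of all genes: 68 were higher and 26 lower, at a median log2 difference of 0.54. Stretches of the chromosome that lay well apart went opposite ways. ZNF433, ZNF878, ZNF844 and ZNF20 formed a run higher in MOLM-14, and ZNF253, ZNF93, ZNF682, ZNF90, ZNF486, ZNF737 and ZNF66 a run lower in it. The tested genes next to the lower run, ZNF506 (1.52) and ZNF85 (1.22), were called higher. ZNF20 had 28.99 and 29.2 in MOLM-14 and 0.945 and 0.912 in NOMO-1, and ZNF93 had 259 and 344 in NOMO-1 and 5.58 and 9.40 in MOLM-14. Reads shared between these related genes may have been split or dropped in the counting.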
